A study of Canis lupus familiaris with 6 samples.

Results

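The genes described here are 4 genes of water, ion and acid-base handling in the kidney tubule: AQP1, CA2, KCNJ16 and FXYD2. They were taken as a list, and their probes were found by matching each spot's RefSeq transcript accession to the gene. All 4 genes had a probe, 6 probes in all, of 43584 probes on the array, 2325 of which could be given a gene symbol (1436 genes). AQP1 (NM_001003130) and FXYD2 (NM_001252337) had 1 probe each, and CA2 (NM_001145170) and KCNJ16 (NM_001313870) had 2 each.

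The cells were MDCK-II, a dog kidney tubule epithelial line, engineered so that tetracycline (Tet) switches on a scribble shRNA. Scribble is a scaffold protein of epithelial cell polarity. Both arms carried the hairpin. One arm received no Tet and the other received 5 µg/ml from 6 h after plating. RNA was taken 30, 45 and 60 h after that and hybridised to 1 one-colour Agilent array per arm and time, 6 arrays in all, each with RNA mixed from 3 wells. The sources used here do not say whether the line is 1 clone or which promoter drives the hairpin. Cells without the hairpin given tetracycline were not analysed here, so the hairpin and the drug cannot be told apart. SCRIB had no named probe, and the depth of the knockdown was not analysed here.

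The 4 proteins serve different steps of tubular transport. AQP1 is the constitutive water channel of the proximal tubule and thin descending limb. CA2 is the cytosolic carbonic anhydrase, which interconverts carbon dioxide and bicarbonate and so supplies protons and bicarbonate to the transporters of both membranes, and it is abundant in intercalated cells. KCNJ16 encodes Kir5.1, an inwardly rectifying potassium channel subunit that forms basolateral channels with Kir4.1 and sets the membrane potential that drives salt and bicarbonate transport. FXYD2 encodes the gamma subunit of the sodium pump, a small membrane protein that adjusts the affinity of the pump for sodium and potassium.

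Each array had 64.3% to 68.8% of its non-control spots well above background by the scanner software's call, with 0 saturated. The 75th percentile of spot signal, used to scale the arrays, lay between 581 and 639. Of 8 kidney tubule epithelium genes listed, 1 had a named probe, the epithelial cadherin gene CDH1. It was well above background on all 6 arrays. The same held for the principal cell genes AQP2, SCNN1B and AVPR2 and the proximal tubule genes CUBN and SLC5A2. Of 5 proximal tubule genes listed, 3 had a probe: CUBN, SLC5A2 and the member AQP1. With minus without Tet at 30, 45 and 60 h, CDH1 stood at -0.01, 0.07 and 0.51 (log2) and CUBN at 0.16, -0.04 and -0.47. SLC5A2, with signals of only 10.9 to 15.4, stood at 0.03, 0.23 and 0.31. The principal cell genes were of low signal, 49.5 to 109. UMOD, of the thick ascending limb, and SLC4A1, the anion exchanger of red cells and intercalated cells, were not well above background on any array. The other listed intercalated cell gene with a probe was the member CA2, which was well above background on all 6 arrays. Of other cell types, 4 of 6 fibroblast markers had a probe, with DCN not well above background anywhere, and their summed level was 2.21 to 2.55 times the array's 75th percentile without Tet and 2.42 to 2.55 times with Tet. COL1A2 made up most of that sum. The dimmer COL1A1 stood at 0.26, 0.70 and 0.82 (log2, with minus without Tet, at 30, 45 and 60 h). The mean was 0.59 (limma, adjusted p = 0.134), and 3 of 4 COL1A1 probes had a mean of that sign. For endothelium, 2 of 4 markers had a probe and the sums were 23.1 to 24.1 and 22.0 to 24.7, nearly all of it VWF; the dimmer KDR stood at -0.03, 0.29 and 0.53. None of 3 leukocyte markers had a named probe. Their part in the results was not tested.

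Both probes of CA2 gave lower signal with Tet at each time, and the gap was larger at each later time. On the first probe (A_11_P0000023190) the processed signal without Tet was 84651 at 30 h, 94391 at 45 h and 96623 at 60 h. With Tet it was 65322, 45643 and 27939. The lowest was the 60 h array with Tet. The scanner software put the error of each of these spots at 10.0% of its signal. On the log2 scale, after scaling by the 75th percentile, the differences with minus without Tet were -0.37 ± 0.20 at 30 h, -1.06 ± 0.20 at 45 h and -1.77 ± 0.20 at 60 h (± propagated spot error, 1 pair of arrays each). These are levels 1.29-, 2.08- and 3.41-fold lower. In bulk RNA such as this, fewer cells with the transcript and less transcript per cell cannot be told apart.

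The second CA2 probe (A_11_P064456) repeated the pattern on separate spots of the same RNA. Its signal was 48479, 53809 and 56362 without Tet and 37817, 23276 and 14440 with Tet. The differences were -0.35, -1.22 and -1.94, or 1.27-, 2.32- and 3.85-fold lower. Over the 6 arrays the log2 levels of the 2 probes correlated at r = 0.998, as a description of probes that share their RNA. The mean difference over the 3 times was -1.06 ± 0.28 (SE) on the first probe and -1.17 ± 0.32 on the second. Here and below, the SE of a fitted value is limma's, which is drawn toward a spread shared by all probes. For the members' mean differences it is smaller than their 3 values alone would give.

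Most of the widening gap in CA2 lay in the arm with Tet. The log2 level at 60 h less that at 30 h was -1.10 on the first probe and -1.26 on the second with Tet, and 0.31 and 0.33 without. Between 45 and 60 h with Tet, for which both arrays lie on 1 slide, it was -0.62 and -0.60.

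**Figure D1:**
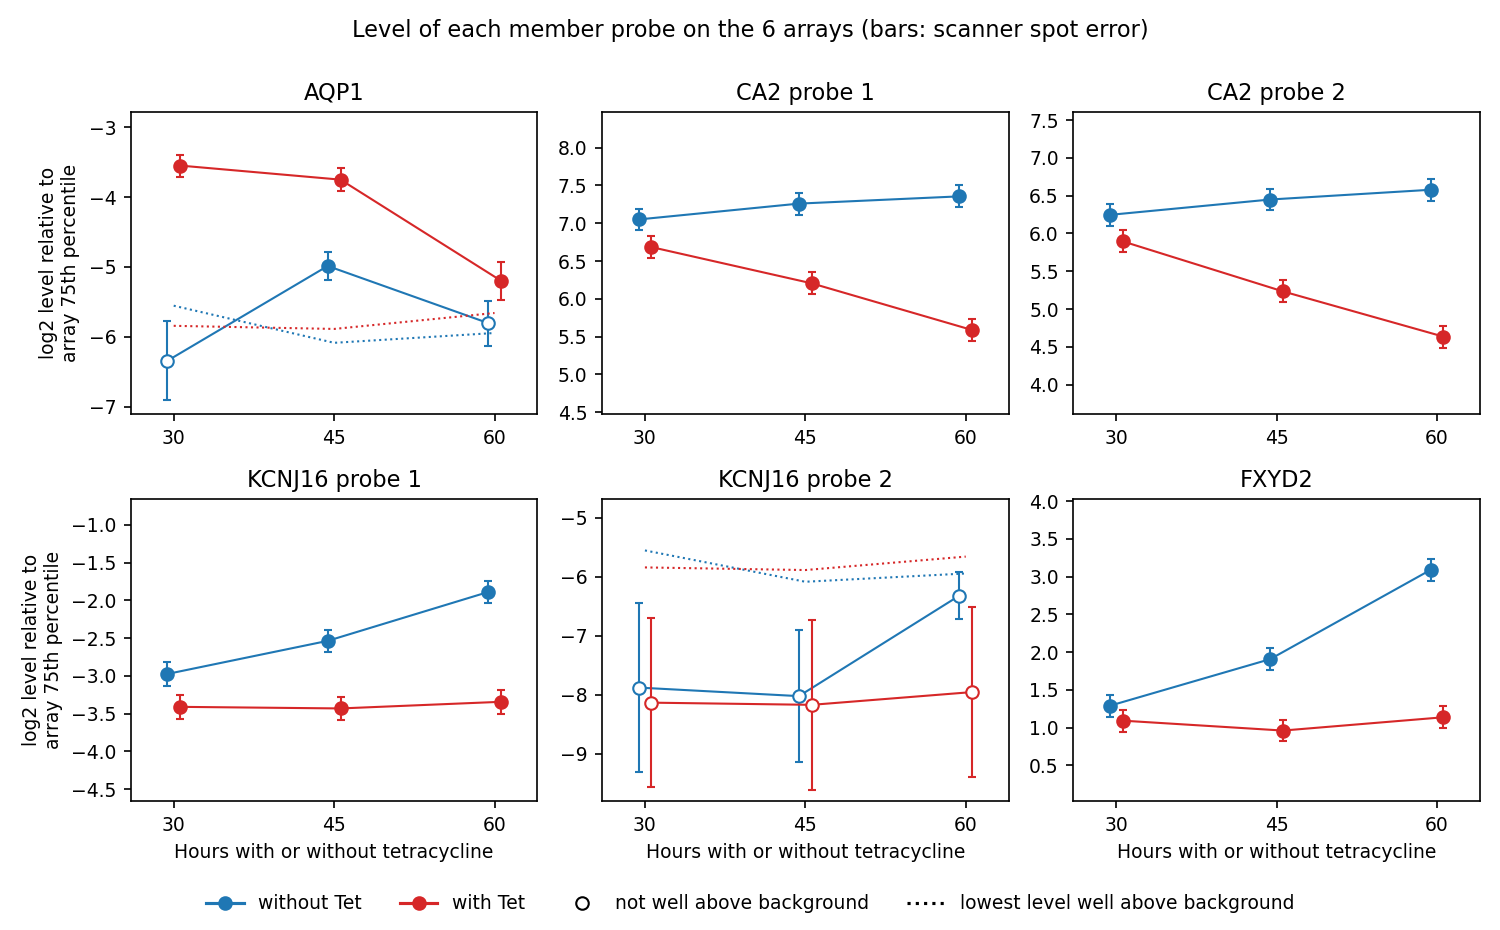
Level of each probe on each array, as log2 of processed signal relative to the array's 75th percentile, against hours with or without tetracycline; 1 point per array, bars the scanner's spot error, open points not well above background, dotted lines the lowest level well above background on each array. From 30 to 60 h the first CA2 probe differed by -1.10 with Tet, and FXYD2 and KCNJ16 by 1.80 and 1.08 without Tet, while AQP1 lay near the background limit.

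KCNJ16 and FXYD2 were also lower with Tet at each time, but here the levels that differed between times were those without Tet. On the brighter KCNJ16 probe (A_11_P081266) the signal without Tet was 81.3 at 30 h, 106 at 45 h and 159 at 60 h. With Tet it was 59.8, 57.4 and 57.3. The 3 arrays with Tet differed little from each other. The log2 differences were -0.44 ± 0.22, -0.89 ± 0.21 and -1.45 ± 0.22 (± spot error), that is 1.35-, 1.86- and 2.74-fold lower with Tet, with a mean of -0.93 ± 0.21 (SE). The signals lay between 4.98 and 16.6 times the lowest signal well above background on their array, so this is a dim transcript here. With normexp background correction, which adds an offset of 50 and so shrinks differences of dim spots, the values were -0.32, -0.51 and -0.84, with a mean of -0.56.

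The second KCNJ16 probe (A_11_P000002728) was not well above background on any of the 6 arrays. Its signal was 2.14 to 7.38, below the lowest signal well above background on every array, and it gives no fold change. The difference in KCNJ16 therefore rests on 1 probe.

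For FXYD2 (A_11_P0000039677) the signal without Tet was 1562 at 30 h, 2309 at 45 h and 5016 at 60 h. With Tet it was 1354, 1205 and 1279. The 60 h array without Tet stood highest. At 30 h the difference was -0.20 ± 0.20, no larger than the spot error. It was -0.95 ± 0.20 at 45 h and -1.95 ± 0.20 at 60 h, or 1.93- and 3.87-fold lower with Tet. The mean was -1.03 ± 0.35 (SE), and without the 60 h pair it was -0.57.

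Without Tet, FXYD2 stood 1.80 higher at 60 h than at 30 h (3.48-fold) and KCNJ16 1.08 higher (2.12-fold). With Tet the same differences were 0.04 and 0.07, within the spot errors of 0.20 and 0.22. Both 30 h arrays were on slide 1 and both 60 h arrays on slide 2, while the 45 h pair was divided between them. The step from 30 to 45 h without Tet lies within slide 1, and there the difference was 0.62 for FXYD2 and 0.44 for KCNJ16. The log2 levels of KCNJ16 and FXYD2 over the 6 arrays correlated at r = 0.978, against 0.760 and 0.676 for each with the first CA2 probe. These arrays share the same arms and times, so the values describe likeness of profile and nothing more.

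**Figure D2:**
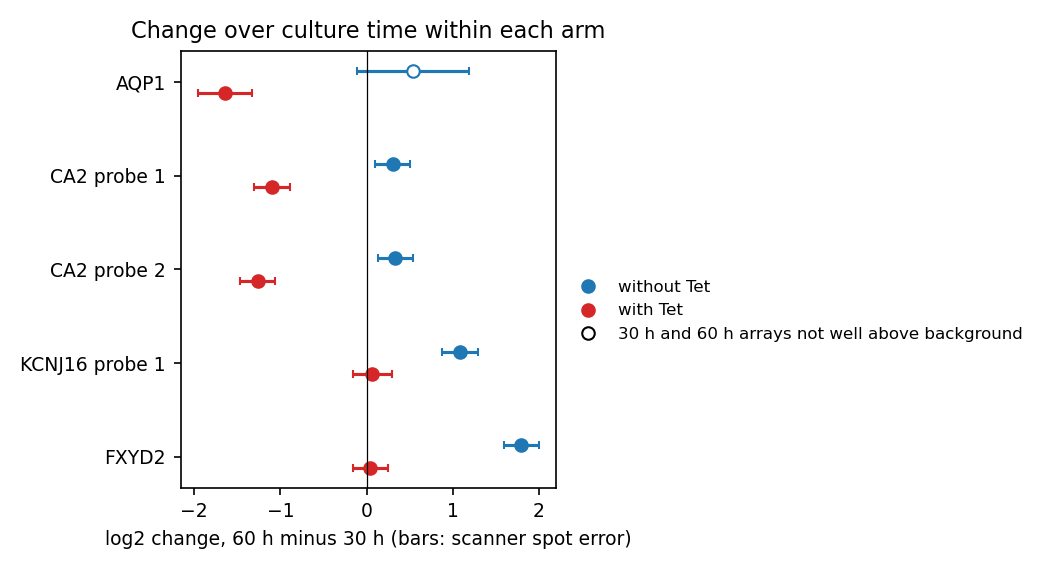
Log2 level at 60 h less that at 30 h within each arm, 1 point per arm and probe, with the propagated scanner spot error as bars; the open point has its 30 h and 60 h arrays not well above background. FXYD2 and KCNJ16 stood at 1.80 and 1.08 without Tet and at 0.04 and 0.07 with Tet, whereas the CA2 probes stood at -1.10 and -1.26 with Tet.

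AQP1 was the 1 gene of the 4 that was higher with Tet. Its signal (probe A_11_P050591) was 54.2 at 30 h, 46.0 at 45 h and 15.9 at 60 h with Tet, well above background each time. Without Tet it was 7.87, 19.4 and 10.6, and only the 45 h array was well above background. The arms overlapped: the 60 h array with Tet was below the 45 h array without Tet. Within each time the array with Tet was the higher one. At 30 h AQP1 was at least 4.01-fold higher with Tet, and at 45 h a measured 2.35-fold higher (1.23 ± 0.26, spot error). At 60 h the bound was 1.52-fold, or 0.61 with a spot error of 0.42 (log2). For a bound, the dim array is given the larger of 2 values, its own AQP1 signal or the smallest one called above background there. At 60 h that was its own signal, so the bound there is the difference itself and is no firmer than its spot error.

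With Tet, AQP1 at 60 h stood at -1.65 relative to 30 h (3.13-fold less), of which -1.45 lay between the 45 and 60 h arrays of slide 2. The mean difference between arms, with dim arrays at their own signal, was 1.54 ± 0.44 (SE by limma, from 3 pairs and the shared spread). AQP1 entered the test only through the arm with Tet, in which it is high. The value was 0.92 without the 30 h pair. With normexp correction the differences were 0.64, 0.44 and 0.21, with a mean of 0.43. The AQP1 signals with Tet were 4.90, 4.39 and 1.38 times the lowest signal well above background on their arrays, so they are close to the limit of measurement. The bound at 30 h lies above the value measured at 45 h, a pair that spans both slides. With only a bound at 60 h, whether the gap was narrower still at 60 h cannot be read.

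**Figure D3:**
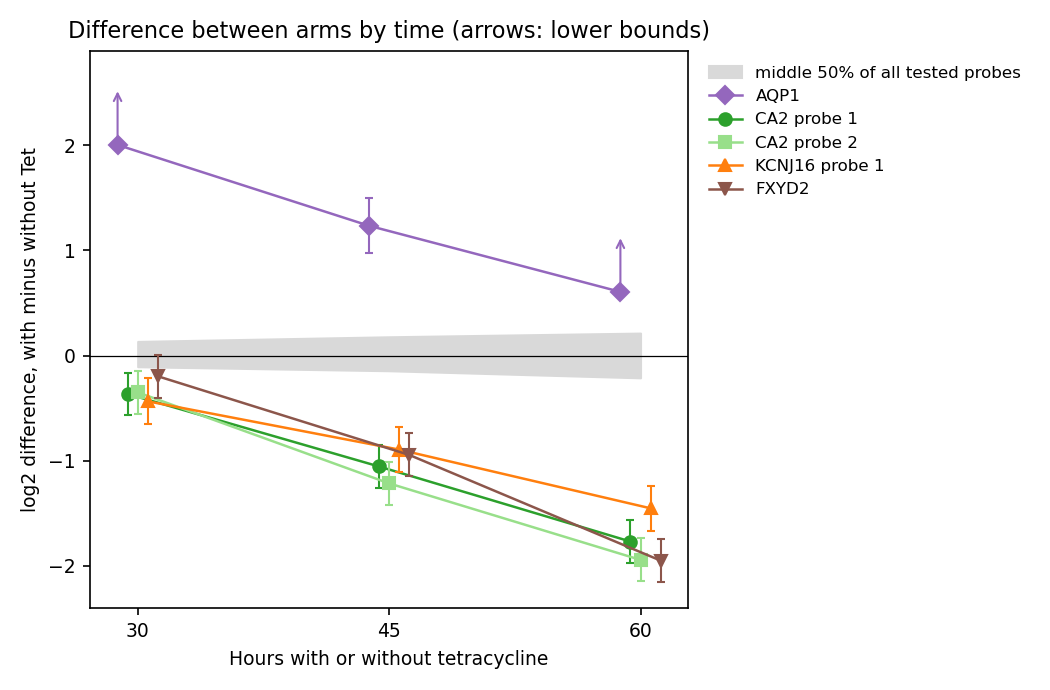
Difference between arms (log2, with minus without Tet) at each time for the 5 probes that were well above background in an arm, with propagated spot errors, arrows marking lower bounds, over a grey band holding the middle 50% of all 28178 tested probes. CA2, KCNJ16 and FXYD2 stood at -1.77, -1.45 and -1.95 at 60 h. The AQP1 points at 30 and 60 h are bounds around a measured 1.23 at 45 h. The bound at 60 h is the difference itself, with a spot error of 0.42.

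No member passed the test across all probes. In limma's fit with time as a block, the error is the spread of the difference over the 3 times, not that between replicate cultures. It is drawn toward a spread shared by all probes (2.38 prior degrees of freedom beside 2 residual). Adjusted p in this limma fit was 0.135 for KCNJ16, 0.155 and 0.159 for the CA2 probes, 0.166 for AQP1 and 0.195 for FXYD2. Of 28178 probes tested, 0 (0%) passed an adjusted p of 0.05, and 6570 had an unadjusted p under 0.05. The CA2, FXYD2 and brighter KCNJ16 probes were among the 11.0% of probes lower at an unadjusted p under 0.05. The share higher was 12.3%; AQP1 was counted there, but with dim arrays in the arm without Tet its p is no test of its difference. A difference of this kind was thus common on these arrays. The 4 probes of CA2, KCNJ16 and FXYD2 were among the 21.6% lower with Tet at all 3 times, and among the 10.2% whose difference was also more negative at each later time. AQP1 was among the 28.0% higher at all 3 times.

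By size, CA2, KCNJ16 and FXYD2 stood further out at later times, and AQP1 did not. At 30 h, 1.70% of probes detected in either arm were at least 2-fold lower with Tet, with 0 of the 5 member probes among them, and 1.82% were at least 2-fold higher, AQP1 among them. At 45 h the shares were 3.03% lower, with both CA2 probes, and 1.94% higher, with AQP1. At 60 h they were 4.62% lower, with both CA2 probes, KCNJ16 and FXYD2, and 3.05% higher, with none of the members. At 60 h, 130 of the 28178 tested probes had a difference as low as that of FXYD2 or lower, 186 for the first CA2 probe and 326 for KCNJ16. The members were chosen with earlier results of these data known, so these ranks are a description and no test.

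The trend of the difference over time was fitted as a slope per 15 h. It was -0.88 ± 0.08 (SE) for FXYD2, -0.70 ± 0.07 and -0.80 ± 0.07 for the CA2 probes, -0.51 ± 0.07 for KCNJ16 and, for AQP1, -1.09 ± 0.15 from dim arrays at 30 and 60 h, which is no test of a trend. Adjusted p by limma was 0.106 to 0.116 for the probes of CA2, KCNJ16 and FXYD2, and 0 of 28178 probes (0%) passed. At an unadjusted p under 0.05, 10.8% of probes had a downward slope, the 4 probes of CA2, KCNJ16 and FXYD2 among them. With normexp correction the slopes of the dim probes were -0.26 for KCNJ16 and -0.22 for AQP1. The fit has 1 residual degree of freedom and leans on the spread shared by all probes. With limma's trended and robust prior the slopes of CA2, KCNJ16 and FXYD2 passed an adjusted p of 0.05 (1842 probes in all did), at 0.0023 for FXYD2, 0.0033 and 0.0027 for CA2 and 0.034 for KCNJ16.

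As an average over both arms, the contrast of 60 h with 30 h was 0.92 ± 0.43 (SE) for FXYD2 and 0.58 ± 0.26 for KCNJ16. It was -0.40 ± 0.34 and -0.46 ± 0.39 for the CA2 probes and -0.55 ± 0.54 for AQP1. None of the 5 passed (limma, adjusted p 0.212 to 0.532), while 8.13% of all tested probes did. For CA2 this average joins arms with opposite signs, and for KCNJ16 and FXYD2 an arm near 0 with one well above it.

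Among 152 other genes of tubular water, ion and acid-base handling, 36 had a named probe and 22 were tested. Of these 22, 0 passed an adjusted p of 0.05 (limma), 6 were lower and 2 higher at an unadjusted p under 0.05 (11.0% and 12.3% of all tested probes), and 8 were lower and 6 higher at all 3 times (21.6% and 28.0%). Their median difference was -0.04, beside 0.01 over all tested probes. On the brightest probe of each gene none of the 22 reached 2-fold at 60 h, where the values ran from -0.88 to 0.67; a second FXYD6 probe, described next, did.

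Of the sodium pump genes, ATP1B1, the beta subunit that carries the pump to the membrane, stood at -0.14, -0.27 and -0.37 at 30, 45 and 60 h (mean -0.26 ± 0.08, SE, adjusted p = 0.173, limma). FXYD6, another member of the FXYD family and the neighbour of FXYD2 in the dog gene table, had signals of 894, 1027 and 1374 without Tet and 606, 533 and 745 with Tet. At each time the array with Tet was the lower. The mean difference was -0.79 ± 0.10 (adjusted p = 0.108), and 2 other probes well above background on all 6 arrays had means of -0.75 and -0.98; the fourth was well above background on 2 arrays. On the brightest probe the differences were -0.55, -0.95 and -0.86 at 30, 45 and 60 h. A second FXYD6 probe stood at -0.51, -0.83 and -1.60, so the probes differed on whether the gap was wider at 60 h.

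Other acid-base genes differed less. CA1, a carbonic anhydrase gene close to CA2 in the gene table, stood at -0.11, -0.08 and -0.22, and the tumour-associated CA9 at 0.19, -0.39 and -0.30. The CA9 values are from the brighter of its 2 probes, and the mean of the other had the opposite sign. CA3, which lies between CA1 and CA2, was well above background on 1 of 6 arrays. SLC9A3R1, the scaffold NHERF1 that binds transporters beneath the apical membrane, had a mean of -0.32 ± 0.09. The proton pump was represented by 1 gene, ATP6V0E1, with a mean of 0.06 on its brighter probe and a mean of opposite sign on the other.

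For water and salt, the vasopressin-regulated water channel AQP2 stood at 0.00, -0.19 and -0.05, where AQP1 was higher with Tet at each time. The vasopressin receptor AVPR2 stood at 0.03, 0.03 and 0.04 on its brighter probe, with a mean of opposite sign on the other. The sodium channel subunit SCNN1B stood at -0.13, -0.23 and -0.36. Of 20 other potassium channel genes listed, 5 had a named probe and 0 of these were well above background on all arrays of an arm, and KCNJ2, close to KCNJ16 in the gene table, was on none. Of the osmolyte transporters, SLC6A12, which carries betaine, had signals of 264, 260 and 285 without Tet and 138, 123 and 153 with Tet. Its difference was -0.97 ± 0.08 (adjusted p = 0.105), from -0.93, -1.08 and -0.88 at the 3 times. SLC5A3, which carries myo-inositol, stood at 0.01, 0.28 and 0.67. The potassium-chloride cotransporter gene SLC12A4 had a mean of 0.25 on its brighter probe and 0.04 on the other.

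**Figure D4:**
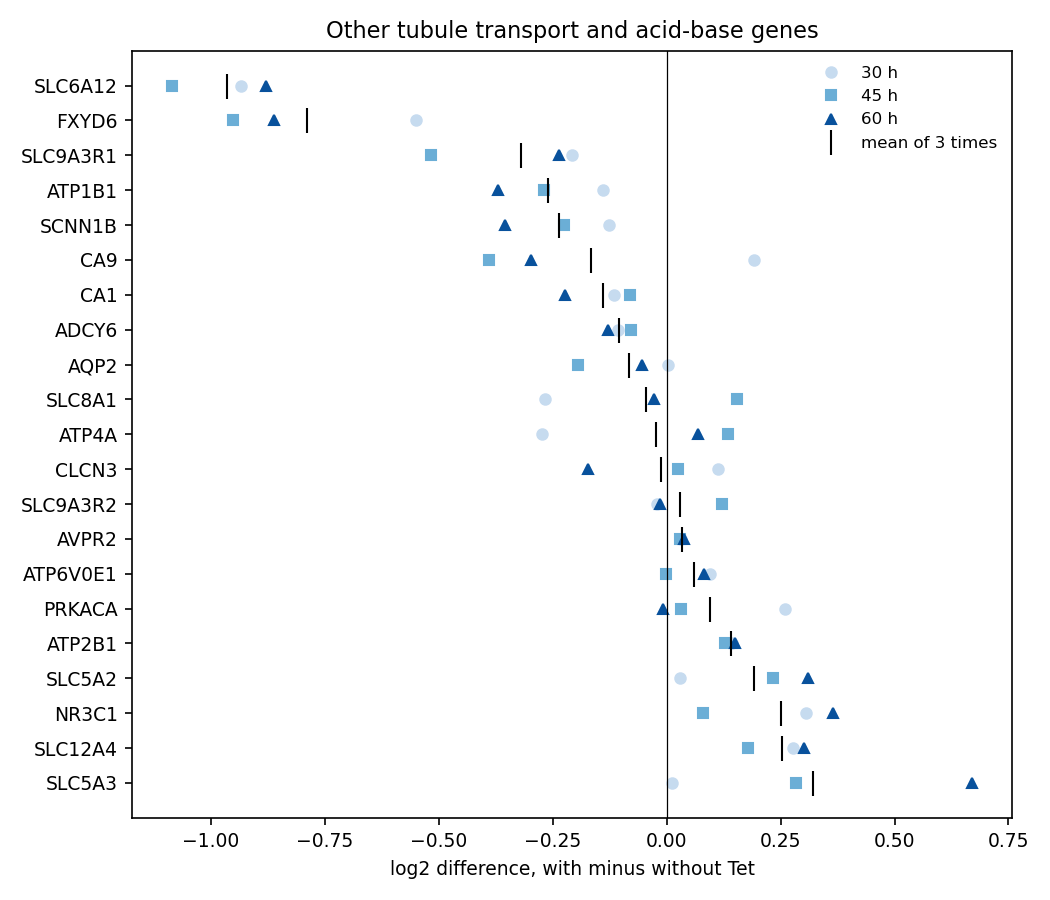
Difference between arms (log2, with minus without Tet) at 30, 45 and 60 h, and the mean of the 3 times, for the tested genes of the tubular transport and acid-base list, 1 of which is not shown. SLC6A12 and FXYD6 stood at -0.88 and -0.86 at 60 h on the brightest probe of each gene, the one plotted, and a second FXYD6 probe, not plotted, stood at -1.60.

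The genes most like each member were sought among 144 other named genes that were well above background on all 6 arrays and varied by at least 1 log2 unit. Likeness was Pearson's r over the 6 arrays, given as a description. AQP1 was left out because it was not well above background throughout. CA2 was most like the imprinted noncoding RNA H19 (0.994), the growth factor receptor gene FGFR2 (0.981) and the glutamate transporter gene SLC1A1 (0.981), and least like the efflux pump gene ABCB1 (-0.974) and the haem oxygenase gene HMOX1 (-0.961). KCNJ16 was most like the sulfotransferase gene SULT1A1 (0.992), the vitamin C transporter gene SLC23A1 (0.989) and the guanylate cyclase subunit gene GUCY1B1 (0.984). FXYD2 was most like the alkaline phosphatase gene ALPL (0.994), DHDH (0.993) and again SULT1A1 (0.988). The adhesion molecule gene ICAM1 was opposite to both, at -0.987 for KCNJ16 and -0.999 for FXYD2. The tissue factor gene F3 stood at -0.993 for KCNJ16 and the cyclin gene CCND1 at -0.991 for FXYD2.

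These genes were chosen for their likeness over the same 6 arrays, so their courses repeat those of the members. SULT1A1, SLC23A1, GUCY1B1, ALPL and DHDH differed between 60 and 30 h by 0.84 to 1.91 without Tet and by -0.07 to 0.25 with Tet, as KCNJ16 and FXYD2 did. H19, FGFR2 and SLC1A1 differed by 0.09 to 0.85 without Tet and by -0.83 to -1.85 with Tet.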

How the data were processed

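Total RNA was labelled with Cy3 and hybridised to 1-colour dog arrays, 1 for each of 2 arms at 3 times. The authors deposited linear spot intensity as written by Agilent Feature Extraction 11.5.1.1 (per the submitters' processing notes), with background subtracted and spatial trends removed per the file headers, and not normalized across arrays. Their value table holds the same signal multiplied by 1 factor per array (2.30 to 2.62) that the sources used here do not explain.

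Outlier spots were left out, spots of a probe averaged, and 19 probes with no spot left dropped. Values are log2 of processed signal less the array's 75th percentile. Accessions were named through a RefSeq gene table of another build (UU_Cfam_GSD_1.0), used for names and gene order only. Probes well above background on all 3 arrays of an arm, 28178 genome-wide, were fitted with limma 3.58.1 in R 4.3.3 (lmFit, eBayes, two-sided, Benjamini-Hochberg adjustment), each probe a feature; an alternative took 1 probe per gene. The arm fit had time as a block, the slope added arm by linear time, and culture time was 60 h against 30 h. The fits were tested on simulated data. Arrays are not replicates, so each p-value reflects how a difference varied across times or arms, not across cultures. Each also leans on a spread shared by all probes.

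Bounds apply where 1 array was not well above background. The rule names the 4 genes, listed genes with at least 0.58 at each time or the 6 largest other means, and for each member the 3 most and 2 least alike genes; other genes were named after their values were seen. The members and lists were chosen with earlier results of these data known. No DNA sequence was used. For 1 listed gene the values are not reported here.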

Additional observations from a re-analysis of the deposited data

Results flagged for a closer look

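CA2 was the 1 member whose 2 arms went in opposite directions at both steps, from 30 to 45 h and from 45 to 60 h. The change from 30 to 60 h was 0.31 without Tet and -1.10 with Tet on the first probe, a difference between arms of -1.40. On the second probe it was 0.33 and -1.26, a difference of -1.59. The single steps without Tet were 0.21 and 0.10 on the first probe and 0.20 and 0.13 on the second, no larger than about the spot error of 0.20, and the later one crosses slides. The test of this difference is the slope of the arm difference, with adjusted p = 0.107 and 0.106 (limma), so it did not pass. No group had enough arrays for a test of outlying samples.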

How the results depend on the processing

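The mean difference between arms kept its sign and stayed above an adjusted p of 0.05 (limma) for all 5 tested member probes, under every alternative they entered. For AQP1 this is no test, since it entered only through the arm with Tet, with dim arrays in the other. The mean difference ran from -0.71 to -1.41 and -0.78 to -1.58 for the CA2 probes and -0.56 to -1.17 for KCNJ16. It ran from -0.57 to -1.45 for FXYD2 and 0.43 to 2.01 for AQP1. Adjusted p was 0.055 to 0.603. The count of probes past the threshold for the arms was 0, but 140 with normexp correction, 21 when time was not modelled, 20 under limma's trended, robust prior and 1 without the 30 h pair. Adding slide gives the same arm values as leaving out the 45 h arrays, since these lie on different slides (adjusted p = 0.603 for each member). No paired analysis by replicate number was possible because each arm and time has 1 array.

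For the slope, 228 probes passed with median scaling, 1650 with normexp, 2 among probes well above background on all 6 arrays and 1842 with the trended and robust prior. That prior brought the first CA2 probe (-0.70), KCNJ16 (-0.51) and FXYD2 (-0.88) past the threshold, and put AQP1 (-1.09) there too, which rests on dim arrays and is no test; normexp brought the first CA2 probe (-0.69) and FXYD2 (-0.83) past it, and median scaling FXYD2 (-0.84). The second CA2 probe passed under all 3, at -0.76 to -0.83. For culture time, 2291 probes passed, but 4157 with normexp, 3850 with that prior, 0 with no detection filter and 0 with a slide term. In the arrays without Tet alone, CA2 (0.31 and 0.33) had the opposite sign to the average of the arms. The AQP1 value there (0.54) comes from dim arrays and is smaller than its spot error of 0.65, so its sign cannot be read. The 2-fold counts of 1033, 1520 and 2333 at 30, 45 and 60 h were 222, 571 and 1266 where both arrays were well above background, and 108, 220 and 623 with normexp. Dim spots limit AQP1 and KCNJ16, and the cause of the other shifts was not tested.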
